A study of Mus musculus with 11 samples.

Results

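Dendritic cells with RNA of Ccr7 and of Ccl22 or Fscn1, genes that mark mature dendritic cells, were examined in dissociated mouse lung by droplet-based single-cell RNA sequencing, which reads the 3′ ends of transcripts and counts them as unique molecular identifiers (UMIs). A cell was a member when its barcode held 1000 to 30000 UMIs with at most 14% from mitochondrial genes, and had at least 3 UMIs of Ccl22 and Fscn1 together, at least 1 of Ccr7, at least 5 of H2-Ab1, and 0 of Cd3e (T cells) and Cd79a (B cells). The rule found 146 cells among the 69266 barcodes that passed the depth and mitochondrial limits. The levels of those 6 genes therefore chose the members, and they are given below as descriptions without tests. For comparison, 723 conventional type 1 dendritic cells (cDC1 gate, by Xcr1 and Clec9a) and 513 type 2 cells (cDC2 gate, by Cd209a) were selected by UMI counts in the same way, with no cell in more than 1 gate.

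The series holds 11 lung libraries of 4 genotypes. WT mice were wild type (+/+, 1 library), p21Het mice were heterozygous for p21 (+/-, 3 libraries), p21mTert mice carried a normal allele and an mTert allele of p21 (+/mTert, 5 libraries), and p21mTertCD mice carried an mTertCD allele (+/mTertCD, 2 libraries), whose CD suffix the labels do not spell out. The gene of p21 is Cdkn1a and that of mTert is Tert, the telomerase reverse transcriptase. The age labels give 18 months for all libraries except p21Het_1 at 19 and p21mTert_1 at 20 months. WT_1, p21Het_1 and p21mTert_1 belong to an earlier deposit than the other 8. The labels do not state that replicate libraries came from separate mice, so p-values measure the spread between these libraries, which may be technical.

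The total per library was 42038434 to 85988955 UMIs, with 4133 to 6454 for the median passing barcode. Mitochondrial genes took a median 6.30% to 6.58% of UMIs in libraries of the earlier deposit and 2.82% to 4.28% in those of the later one. Any pair of libraries shared at most 20 passing barcodes, 0.322% of the smaller library. The 146 cells were deeper than the average lung cell, with a median of 16710 UMIs (lowest 1796, highest 29753) and 2442232 UMIs together. The upper limit of 30000 UMIs removed 6 further cells that met the gene rule, and the mitochondrial limit removed 1.

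Dendritic cells take up antigen in peripheral tissue, and on activation they turn down uptake, load peptides on MHC molecules and express costimulatory receptors for T cells. The chemokine receptor CCR7 then guides them through lymph vessels to the draining lymph node, where they meet naive T cells, and fascin (Fscn1), which bundles actin, shapes their long extensions. In the lung such cells are rare, because many leave the tissue as they mature.

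The members differed widely in the genes that selected them. Per cell, the median was 23 UMIs of Ccr7 (1 to 109), 16 of Ccl22 (0 to 870) and 6.5 of Fscn1 (0 to 127). Of the 146 cells, 32 had no UMI of Ccl22 and 53 had no UMI of Fscn1, so they entered through the other gene alone. H2-Ab1, the beta chain of the MHC class II molecule I-A, had a median of 99 UMIs (5 to 379). At the edge of the rule, 9 members had exactly 3 UMIs of Ccl22 and Fscn1 together and 13 otherwise eligible cells had 2. Pooled over those cells, Ccr7 stood at 622 UMIs per 1000000 (CPM) just inside and 829 CPM just outside, and Cd209a, a C-type lectin of type 2 cells, at 631 CPM inside and 258 CPM outside. A further 225 cells failed through a lack of Ccr7 alone, whereas 15 members had a single Ccr7 UMI. Another 84 cells failed through fewer than 5 UMIs of H2-Ab1 alone, from 1 in p21mTert_5 to 26 in p21Het_2. The members therefore leave out cells with Ccr7 and little class II RNA.

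**Figure D1:**
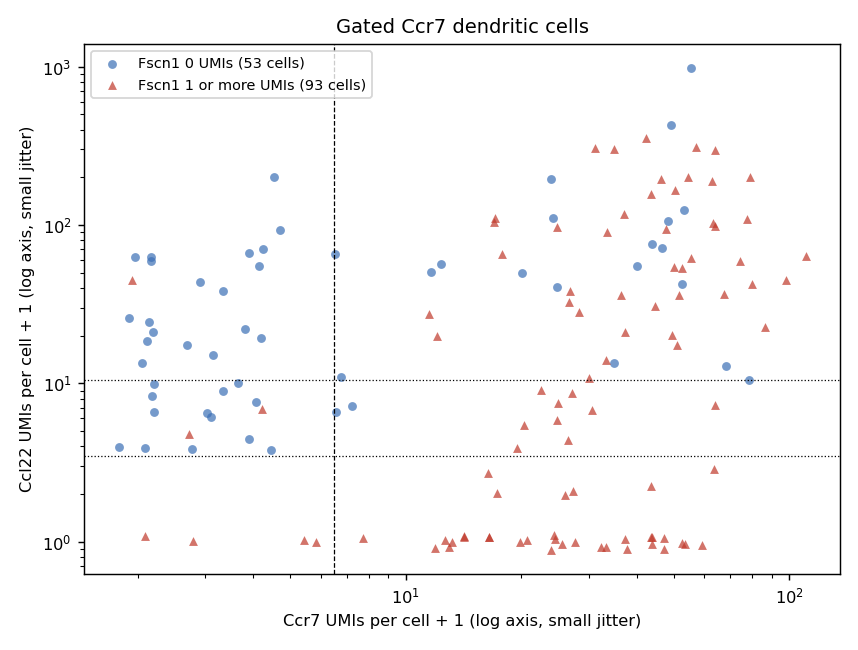
UMIs of Ccr7 (x axis) and of Ccl22 (y axis) in each of the 146 gated cells, plus 1 and on log axes with a small jitter. Triangles are the 93 cells with Fscn1 and circles the 53 cells without it. The dashed line separates 5 from 6 Ccr7 UMIs, and the dotted lines separate 2 from 3 and 9 from 10 Ccl22 UMIs. Of the cells without Fscn1, 35 lie left of the dashed line.

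The 3 defining genes lie on 3 chromosomes of the GRCm38 mouse genome. All are protein-coding: Ccr7 at chr11:99144196-99155077 on the minus strand, Ccl22 at chr8:94745590-94751699 and Fscn1 at chr5:142960343-142973185, both on the plus strand. Ccl17, which encodes the other ligand of the receptor CCR4, lies close to Ccl22 at chr8:94810453-94812036, and Il12b, the p40 subunit shared by interleukins 12 and 23, at chr11:44400063-44414033. The upstream bases of the 4 genes on plus strands are shown because these genes stand out in the members and because dendritic cell maturation is driven through NF-kB, whose subunits are described below. They are from RefSeq (GRCm38.p6), plus strand, 5′ to 3′, ending just before the first transcribed base of the RefSeq and GENCODE models or 250 bases into the table's window. Capitals mark a match to GGGA, any 4 bases and CC in turn, a simple form of the site bound by NF-kB, on either strand.
Ccl22 (chr8:94745434-94745589): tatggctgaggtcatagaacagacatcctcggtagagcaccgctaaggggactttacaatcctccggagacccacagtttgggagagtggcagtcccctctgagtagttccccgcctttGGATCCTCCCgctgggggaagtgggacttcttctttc
Fscn1 (chr5:142960105-142960342): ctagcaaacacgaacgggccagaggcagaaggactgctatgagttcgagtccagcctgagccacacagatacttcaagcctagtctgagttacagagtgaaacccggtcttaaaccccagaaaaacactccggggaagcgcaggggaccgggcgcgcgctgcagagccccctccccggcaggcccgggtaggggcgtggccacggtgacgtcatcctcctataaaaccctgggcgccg
Ccl17 (chr8:94810203-94810452): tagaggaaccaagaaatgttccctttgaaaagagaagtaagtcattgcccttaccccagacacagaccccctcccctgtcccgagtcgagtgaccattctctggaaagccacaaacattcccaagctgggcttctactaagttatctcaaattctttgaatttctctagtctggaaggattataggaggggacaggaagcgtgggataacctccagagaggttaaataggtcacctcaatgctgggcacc
Il12b (chr11:44399813-44400062): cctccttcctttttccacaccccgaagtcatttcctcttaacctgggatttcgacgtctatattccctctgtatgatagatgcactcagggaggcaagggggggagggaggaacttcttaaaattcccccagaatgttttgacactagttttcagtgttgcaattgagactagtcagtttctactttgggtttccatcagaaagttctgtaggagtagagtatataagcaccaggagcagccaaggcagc
The Ccl22 stretch of 156 bases held 1 match, on the opposite strand and printed here as GGATCCTCCC, and the other stretches of 238, 250 and 250 bases held none. Over 250 bases, the motif occurred in 5793 of 32851 mouse promoters (17.6%), so a single match is common. A match is a run of letters and no evidence of binding.

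Ccr7 was high in every library's gated cells and low in the other dendritic cells. The rule asked for at least 1 Ccr7 UMI in members, and cells that met the whole rule were left out of the cDC1 and cDC2 gates. Those gates set no other limit on Ccr7. Part of the difference therefore follows from the rule. Its level over all 11 libraries ran from 852 CPM in p21mTert_2 to 2376 CPM in p21mTert_5, with a median of 1632 CPM, against 1.25 to 13.2 CPM in the cDC1 and cDC2 gates together. Fscn1 ran from 59.4 to 1724 CPM, with a median of 1098 CPM, against 0 to 5.28 CPM. Ccl22, a chemokine that attracts CCR4-bearing T cells, ran from 1014 to 5380 CPM, with a median of 2654 CPM. Its level in the other dendritic cells was 59.7 to 256 CPM. These 3 genes chose the members, so their levels are a description. To set cells of unlike depth side by side, each cell was thinned to 4000 UMIs, which left out 2 members. Ccr7 was then seen in 84.0% of members, 1.25% of cDC1-gated and 1.98% of cDC2-gated cells, and in 0.7% of alveolar type 2 cells, which should lack it. Without thinning, Ccr7 was in 2.77% of cDC1-gated, 5.26% of cDC2-gated and 1.78% of alveolar type 2 cells.

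The largest differences from the other dendritic cells covered more than the gate genes. For 7318 genes with at least 20 UMIs in the members, pooled levels were compared as log2 ratios of CPM + 1. Of these, 628 (8.58%) were at least 2-fold higher in the members and 411 (5.62%) at least 2-fold lower, with a median log2 ratio of -0.08. This minimum applies to the members alone and so leaves out genes nearly absent from them. When the same level (8.19 CPM) had to be reached in either population, an alternative added after the data were seen, 628 of 8117 genes were higher and 786 lower. No test is given, because the gate chose these cells by their RNA. The 25 genes with the highest ratio, among those of at least 100 CPM and higher in each of the 11 libraries, included Cacnb3, a calcium channel subunit, at 206 CPM against 0.647 CPM. They also held Il4i1, an amino acid oxidase that restrains T cells, at 599 against 8.94 CPM, and Anxa3 (annexin A3) at 381 against 15.9 CPM. The lipid-binding protein gene Fabp5 stood at 1319 against 64.6 CPM and the tetraspanin gene Cd63 at 482 against 48.9 CPM. The others in that set were H2-M2, H2-Eb2, Eno3, Tspan3, Zmynd15, Tmem123, Arap2, Plxnc1, Gclc, Rgs1 and Zc3h12c, with Socs2, Samsn1, Relb, Cd274, Birc2 and Il12b, which belong to the lists below, and the 3 gate genes.

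**Figure D2:**
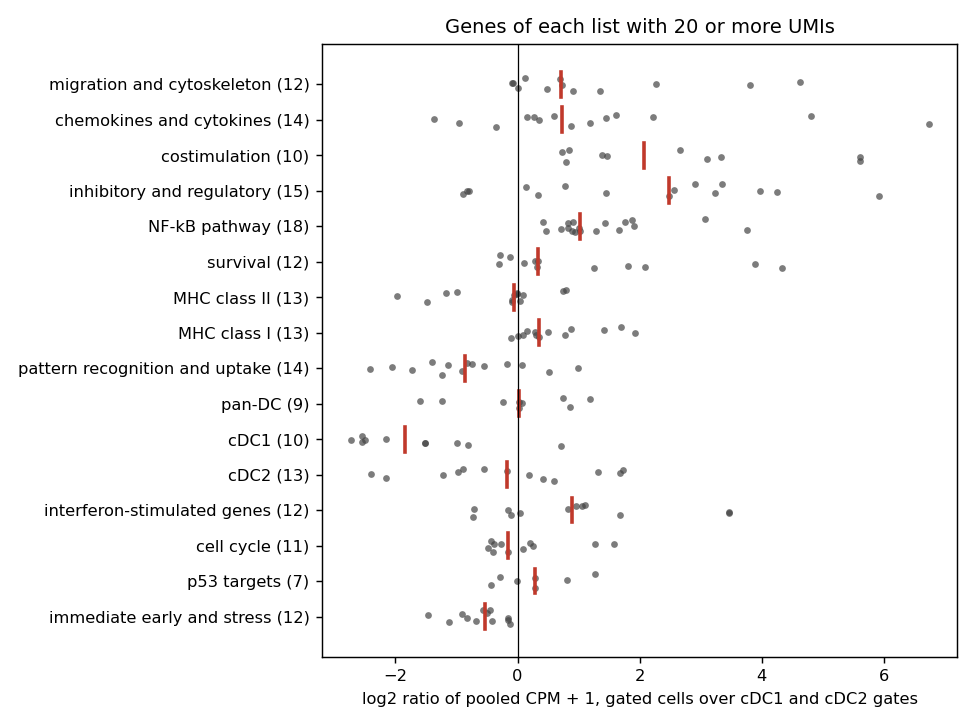
Log2 ratio of pooled CPM + 1 in the 146 gated cells over the cDC1-gated and cDC2-gated cells, 1 point per gene, for genes of each list with at least 20 UMIs. Red bars are list medians and numbers in brackets count the genes plotted. Among the lists drawn, which leave out the gate genes, the inhibitory and regulatory list has the highest median (2.47) and the cDC1 list the lowest (-1.83).

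Among genes of migration and the cytoskeleton, 4 of 12 were at least 2-fold higher and none lower. Samsn1, an adaptor protein of immune cells, stood at 909 CPM in the members, 39.2 CPM in the cDC1 gate and 106 CPM in the cDC2 gate. Its library levels, 486 to 1356 CPM, did not overlap those of the other dendritic cells, 45.8 to 80.3 CPM. Marcksl1 and Marcks, membrane-bound regulators of actin, stood at 651 and 1223 CPM against 134 and 478 CPM. Itgb8, an integrin subunit that activates TGF-beta, was found in 11.6% of the members, at 25 CPM, and had 1 UMI in all other gated dendritic cells. The general actin regulators Cdc42 (745 against 685 CPM), Rac1 (309 against 309 CPM) and Arpc1b (757 against 801 CPM) were at similar levels.

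Of 21 chemokine and cytokine genes, 14 reached 20 UMIs, 6 of them at least 2-fold higher and 1 lower. With the minimum in either population, 6 of 16 were higher and 3 lower. Ccl17 stood at 3933 CPM in the members, 763 CPM in the cDC1 gate and 974 CPM in the cDC2 gate. It was higher in 10 of 11 libraries, from 1410 CPM in WT_1 to 8313 CPM in p21mTert_2, and lower in p21mTert_5, at 450 against 1018 CPM. Ccl5, which attracts T cells, stood at 2364 CPM against 21.3 CPM, but it was concentrated in few cells. The 10 cells with most Ccl5 held 71% of its 5773 UMIs, and 70 members had none. Il12b stood at 683 against 23.5 CPM and was detected in 36.3% of the members. Cxcl16, the ligand of CXCR6, was spread evenly, with 611 to 850 CPM in every library against 195 to 298 CPM. Of the 14, the inflammatory Ccl4 was the one that was lower, at 68.4 against 178 CPM. Il12a, which encodes the p35 subunit of interleukin 12, had 0 UMIs, as had Il10. With 3 counts as the limit that a count of 0 allows, this leaves up to 1.23 CPM for either over all members.

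Of 10 measured costimulation genes, 7 were at least 2-fold higher and none lower. Cd40, through which T cells license dendritic cells, stood at 101 against 15.0 CPM, and Cd80, a ligand of CD28, at 132 against 47.4 CPM. Cd86 (265 against 158 CPM) and Cd83 (923 against 534 CPM) were closer to the other dendritic cells. Tnfrsf9 (65.1 against 0.351 CPM) and Tnfrsf4 (70.02 against 0.452 CPM), better known as the receptors 4-1BB and OX40 of T cells, were low in the other gated dendritic cells. Tnfrsf9 was not limited to the members in the lung: at 4000 UMIs per cell it was seen in 17.4% of members, 0.082% of the other gated dendritic cells and 5.05% of alveolar type 2 cells (33.6%, 0.405% and 10.52% without thinning). The 8 T cell markers examined held 54 UMIs in all members, 22.1 CPM together. Among 15 measured inhibitory and regulatory genes, 9 were at least 2-fold higher and none lower. These included Cd274 (PD-L1, 153 against 14.1 CPM), Pdcd1lg2 (PD-L2, 31.9 against 1.10 CPM), Socs2, a suppressor of cytokine signalling (161 against 7.53 CPM), and Aldh1a2, which makes retinoic acid (51.2 against 4.57 CPM). Havcr2 (TIM-3) stood at 72.9 against 127 CPM and Socs3 at 142 against 129 CPM.

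All 18 genes of the NF-kB pathway were measured and 10 were at least 2-fold higher, with none lower. The subunit genes of the non-canonical branch, Relb (366 against 26.1 CPM) and Nfkb2 (132 against 35.5 CPM), were higher in all 11 libraries, as was Rel (958 against 301 CPM). Rela, of the canonical branch, stood at 62.6 against 46.8 CPM. Birc2, which encodes the ubiquitin ligase cIAP1, stood at 255 against 29.4 CPM and Traf1 at 612 against 162 CPM. In the survival list, 5 of 12 genes were at least 2-fold higher, led by the serpins Serpinb6b (357 against 16.7 CPM) and Serpinb9 (218 against 13.8 CPM), which inhibit proteases of killer cells. Cflar, an inhibitor of caspase-8, stood at 214 against 49.7 CPM, whereas the BCL2-family members Mcl1 and Bax were within 2-fold.

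Of 13 measured MHC class II genes, none was at least 2-fold higher and 3 were lower. Cd74, the invariant chain, stood at 19064 against 19837 CPM, H2-Aa at 7617 against 7686 CPM and H2-Eb1 at 7426 against 7258 CPM. These are averages over members with and without Fscn1, which differed in class II RNA, as given below. Each dendritic cell gate required at least 5 H2-Ab1 UMIs. Cells below that are left out, 84 of which met the rest of the members' rule, so class II levels partly follow from the rule. H2-DMa (461 against 1034 CPM) and H2-DMb1 (318 against 889 CPM), which form the peptide exchange factor, were lower in each of the 11 libraries. March1, a ubiquitin ligase that removes class II molecules from the surface, stood at 15.1 against 62.3 CPM and was also lower in 11 of 11. H2-Eb2, a class II beta chain gene outside that list and among the 25 highest ratios, stood at 100.3 against 2.56 CPM. For MHC class I, 3 of 13 genes were at least 2-fold higher and none lower: H2-Q7 (457 against 141 CPM), the transactivator Nlrc5 (61.4 against 15.5 CPM) and the proteasome activator Psme2 (570 against 213 CPM).

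Of 14 measured genes of pattern recognition and uptake, 6 were at least 2-fold lower and none higher, and with the minimum in either population 10 of 18 were lower. Ccr2, the receptor through which precursors enter tissue, stood at 81.1 against 340 CPM, and Lyz2 (lysozyme) at 405 against 2169 CPM. Of 10 measured cDC1 genes, 7 were at least 2-fold lower (8 of 11 with the minimum in either population), among them the lysosomal enzyme genes Naaa (109 CPM against 871 CPM in the cDC1 gate) and Ppt1 (99.1 against 884 CPM). Xcr1 and Clec9a stood at 34.0 and 19.2 CPM against 324 and 208 CPM in the cDC1 gate, which used them. Of 13 cDC2 genes, 3 were higher and 3 lower by 2-fold, with a median log2 ratio of -0.17. That ratio is to 723 cDC1-gated and 513 cDC2-gated cells pooled, not to the cDC2 gate alone. In members with Fscn1 over those without it, 4 of the 13 cDC2 genes were at least 2-fold higher and 7 lower. For the 10 cDC1 genes these counts were 1 and 8, beside 12% higher and 11% lower of all 7318 genes. Of 9 pan-dendritic genes, 1 was at least 2-fold higher (Irf4) and 2 lower (Irf8 and the transcription factor gene Bcl11a, at 18.4 against 58.0 CPM). By gate, the members had Irf8 at 353 CPM and Irf4 at 131 CPM, against 1240 and 11.9 CPM in the cDC1 gate and 165 and 132 CPM in the cDC2 gate. Levels of Flt3, the growth factor receptor of all dendritic cells, were 149 against 147 CPM, and Zbtb46, a transcription factor of conventional dendritic cells, was higher in 11 of 11 libraries, at 47.5 against 25.9 CPM. Genes of the monocyte lineage were among the 25 with the lowest ratio, with Ly6c2 at 2.46 against 118 CPM, Plac8 at 19.7 against 417 CPM and Csf1r at 32.8 against 111 CPM.

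Of 12 interferon-stimulated genes measured, 5 were at least 2-fold higher and none lower, with a median log2 ratio of 0.89, led by the GTPase genes Gbp2 (77.4 against 6.12 CPM) and Gbp5 (25 against 1.36 CPM). In the cell cycle list, Ccnd2 (673 against 225 CPM) and Cdkn1a (354 against 146 CPM) were higher, while the proliferation marker Mki67 stood at 74.1 against 64.3 CPM. By library, Cdkn1a was 158 to 522 CPM in the members, 40.9 to 149 CPM in the cDC1 gate and 168 to 384 CPM in the cDC2 gate. The members lay below the cDC2 gate in p21mTert_4 (158 against 186 CPM) and above it in each other library. None of 12 immediate early and stress genes was 2-fold higher, and 2 were lower.

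Some UMIs in the members were those of other lung cells. One cell of p21Het_2 held 2220 of the 2891 UMIs of the surfactant genes Sftpc and Sftpa1 (76.8%), and 1 cell of p21mTert_5 held 801 of the 925 UMIs of the neutrophil genes S100a8 and S100a9. Another cell of p21Het_2 held 157 of the 292 UMIs of the macrophage genes C1qa, C1qb and C1qc. The tool Scrublet, which scores likely doublets, marked 33 of 146 members (22.6%) when the highest scores of each library were taken at 0.8% per 1000 barcodes, against 48 of 1236 other dendritic cells (3.88%). Of the marked members, 12 were in p21Het_2 and 10 in p21Het_3, and 32 had Fscn1. Whether they are true doublets was not tested.

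The members were mixed, and not all of them carried RNA of each of the 3 genes in the label. The 93 with Fscn1 and the 53 without it differed in genes the rule did not use. These groups and those below were chosen after their values were seen and have no test. Fscn1-positive cells had a median of 33 Ccr7 UMIs and a median of 15300 UMIs in all, against 3 and 19371 in Fscn1-negative cells. Between them, 876 of 7318 genes (12%) were at least 2-fold higher in the Fscn1-positive cells and 805 (11%) at least 2-fold lower. Anxa3 stood at 645 against 28.7 CPM, Il4i1 at 910 against 184 CPM, Cd200, an inhibitory ligand, at 223 against 9.57 CPM, and Ccl5 at 4087 against 60.3 CPM. Pooled Ccl22 was 3209 against 3175 CPM, but the median cell had 7 Ccl22 UMIs with Fscn1 and 21 without it, where the rule requires at least 3. Ccl17 was lower, at 2096 against 6389 CPM. Of 14 uptake genes, 12 were at least 2-fold lower in the Fscn1-positive cells, and of 13 MHC class I genes 8 were at least 2-fold higher. Of 13 MHC class II genes, 4 were at least 2-fold lower and 0 higher. Class II levels summed to 27326 CPM with Fscn1 and 48175 CPM without it, against 38112 CPM in the other dendritic cells. Ccr2 stood at 5.73 against 182 CPM. Cd209a was present in 1 of 93 Fscn1-positive cells (1.08%, exact 95% interval 0.0270% to 5.85%) and in 34 of 53 negative ones (64.2%, 49.8% to 76.9%). At 4000 UMIs per cell, the shares were 0% and 54.7%, against 86.9% in the cDC2 gate.

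Most Fscn1-negative members were weakly positive for Ccr7. Among them, 35 cells had 1 to 5 Ccr7 UMIs, 26 of these with Cd209a and all 35 with Ccl17. Markers of type 1 cells were present too: 10 of the 35 had Xcr1 or Clec9a, 2 of them together with Cd209a. Their pooled levels of Cd209a (795 CPM) and Mgl2, another lectin of type 2 cells (1336 CPM), were near or above those of the cDC2 gate (907 and 838 CPM). Naaa (319 CPM) and Ccr2 (265 CPM) also remained measurable in them. They entered the gate through Ccl22, with a median of 17 UMIs, and Cacnb3 was at 0 in them, against 336 CPM in the Fscn1-positive cells. The other 18 Fscn1-negative cells had at least 6 Ccr7 UMIs (median 38). Il4i1 (461 CPM), Samsn1 (672 CPM) and Cd209a (135 CPM) lay between the levels of the 35 cells and of the Fscn1-positive cells. Ccl17 (9314 CPM) was above both. The 35 cells are called here by the gate's rule and not as mature cells.

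The Fscn1-positive cells in turn fell along Ccl22. There were 43 cells with at least 10 Ccl22 UMIs, 38 with 0 to 2, and 12 between. The 43 cells with high Ccl22 also had Ccl17 (3749 against 24.4 CPM), Il12b (1324 against 112 CPM), Irf8 (650 against 142 CPM) and Cst3, cystatin C (17198 against 3573 CPM). The 38 cells with little Ccl22 kept Ccr7 at 1965 against 2573 CPM, with Relb and Birc2 at similar levels. These 38 had more Tcf7 (154 against 7.76 CPM), Ltb (162 against 15.5 CPM), Kit (162 against 24.6 CPM) and Spib (128 against 23.3 CPM), the last a transcription factor of B cells and plasmacytoid dendritic cells. Aire, the transcription factor that directs self-antigen expression in thymic epithelium, was detected in 6 of the 38 (15.8%, 6.02% to 31.3%) and 2 of the 43 (4.65%), and in none of the 53 Fscn1-negative or 1236 other dendritic cells. Scrublet marked 18 of the 38 and 10 of the 43.

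**Figure D3:**
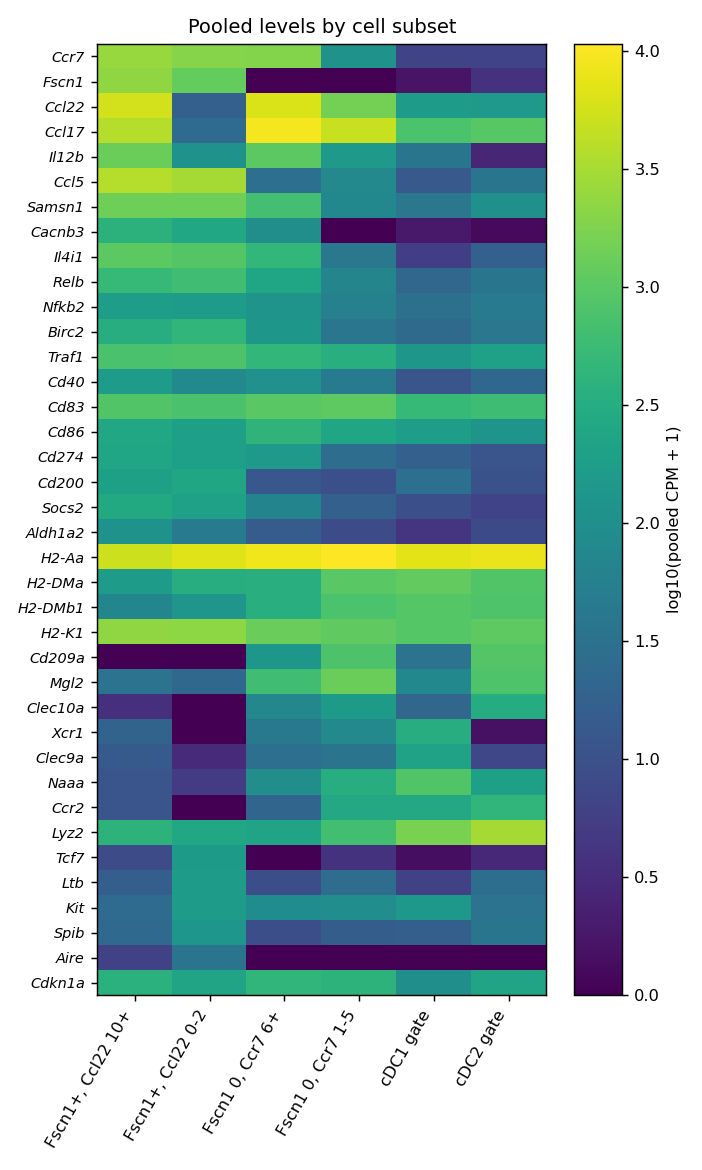
Pooled levels, as log10 of CPM + 1, of 38 genes (rows) in 4 subsets of the gated cells and in the cDC1 and cDC2 gates (columns); the 12 Fscn1-positive cells with 3 to 9 Ccl22 UMIs are not drawn. Cd209a is at 0 in both Fscn1-positive subsets and reaches 795 CPM in the Fscn1-negative cells with 1 to 5 Ccr7 UMIs.

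Gated cells made up 0.0965% to 0.422% of passing barcodes, not counting the 84 cells that failed through H2-Ab1 alone. The share was 0.128% in WT_1 (exact 95% interval 0.0515% to 0.264%, counting error only). The p21Het libraries gave 0.0965%, 0.422% and 0.290%, with a mean of 0.270% ± 0.164 (SD, n = 3). The p21mTert libraries gave 0.193%, 0.106%, 0.206%, 0.176% and 0.127%, with a mean of 0.162% ± 0.0430 (SD, n = 5), and p21mTertCD 0.274% and 0.214%, with a mean of 0.244% ± 0.0425 (SD, n = 2). The p21Het libraries spanned the whole range of the series, and all 5 p21mTert libraries lay below both p21mTertCD libraries. The difference of p21mTert from p21Het was -0.108 percentage points (2-sided exact permutation p = 0.196, adjusted 0.589 over 6 share tests). That from p21mTertCD was -0.0828 points (exact permutation p = 0.0952, adjusted 0.571), where the smallest possible p is 0.0476. p21mTertCD and p21Het differed by -0.0251 points (exact permutation p = 0.8, adjusted 0.96), and that design cannot go below 0.1. No share difference passed 0.05 after adjustment, and none could have. The smallest possible exact permutation p is 0.0179, for p21mTert against p21Het, which stays above 0.05 once adjusted over the 6 tests. The adjusted values therefore cannot show whether the shares differ. Without p21Het_1 the difference of p21mTert from p21Het was -0.194 points (exact permutation p = 0.0476), and without p21Het_2 it was -0.0316 points. With Scrublet-marked cells left out it was -0.0356 points (exact permutation p = 0.607), and in the later deposit alone -0.2023 points (exact permutation p = 0.0667).

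**Figure D4:**
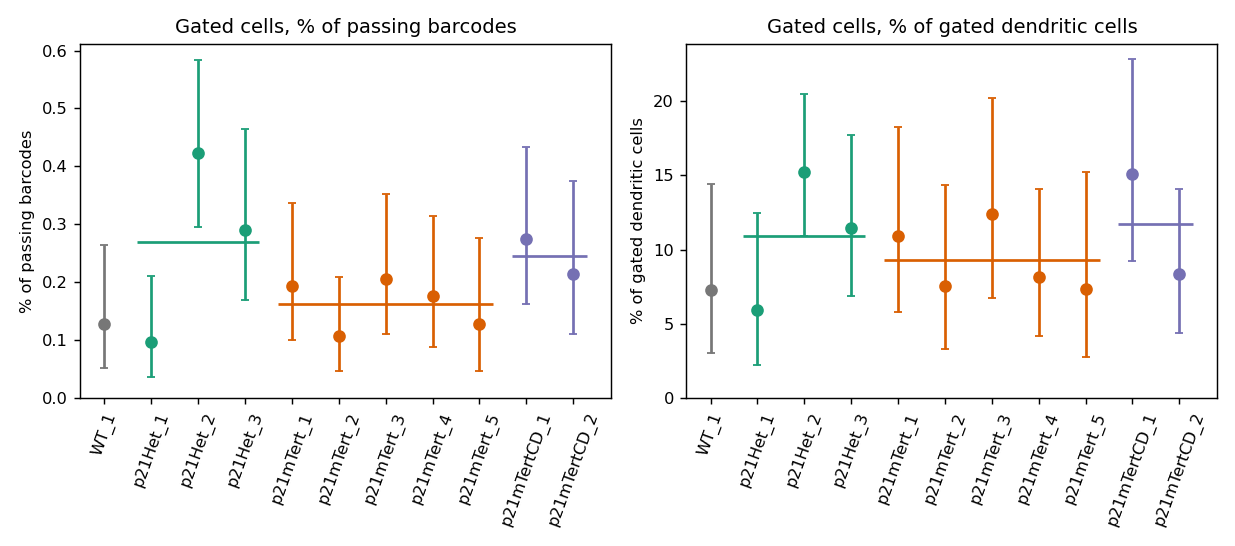
Share of gated cells among passing barcodes (left) and among all gated dendritic cells (right), in percent, for each library, with exact 95% binomial intervals; horizontal lines are group means. The p21Het libraries spread from 0.0965% to 0.422% of passing barcodes, wider than the 5 p21mTert libraries (0.106% to 0.206%).

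Against dendritic cells alone the groups overlapped. Members, the cells called by the gate's rule included, were 7.29% of all gated dendritic cells in WT_1, 10.9% ± 4.69 in p21Het (SD, n = 3), 9.26% ± 2.26 in p21mTert (SD, n = 5) and 11.7% ± 4.80 in p21mTertCD (SD, n = 2). The exact permutation p-values were 0.554 for p21mTert against p21Het, 0.381 against p21mTertCD and 1.0 for p21mTertCD against p21Het. Fscn1-positive cells were 42.9% of the members in WT_1, 65.9% ± 20.4 in p21Het, 50.6% ± 25.8 in p21mTert and 65.3% ± 9.82 in p21mTertCD, ranging within p21mTert from 1 of 8 cells to 5 of 6. The Fscn1-negative cells with 1 to 5 Ccr7 UMIs were 3 of 7 members in WT_1. They were 2 of 6, 0 of 36 and 4 of 17 members in p21Het, 6 of 12, 5 of 8, 3 of 13, 4 of 11 and 1 of 6 in p21mTert, and 2 of 18 and 5 of 12 in p21mTertCD, so the genotypes overlapped. In the libraries fitted below they were 13 of 36 members in p21mTert, 4 of 53 in p21Het and 7 of 30 in p21mTertCD, and 4 of 17 in p21Het without p21Het_2. With Fscn1-positive cells alone, an alternative added after the data were seen, edgeR fitted 1835 genes in 8 libraries and called 0 in each of the 3 comparisons, with 48, 62 and 35 genes at an unadjusted p under 0.05.

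Cdkn1a, the p21 gene whose locus carries the alleles, was detected in 129 of 146 members. It stood at 424 CPM in WT_1, at 504, 323 and 388 CPM in p21Het (mean 405 ± 91.6, SD, n = 3), at 515, 522, 394, 158 and 326 CPM in p21mTert (383 ± 151, n = 5) and at 307 and 210 CPM in p21mTertCD (258 ± 68.9, n = 2). Both p21mTertCD libraries lay below all p21Het libraries, and p21mTert overlapped each other group. In the fit described next, the log2 fold change of Cdkn1a for p21mTert over p21Het was -0.04 (SE 0.41, edgeR adjusted p = 0.992). Tert had 8 UMIs in 7 cells, all in p21mTert libraries: 2, 1, 4 and 1 in replicates 2 to 5, and 0 in p21mTert_1. The other 6 libraries had 0, where 3 counts would amount to 5.38 CPM in p21Het_2 and up to 28.5 CPM in p21Het_1. Over the groups these counts were 8 of 900044 UMIs in p21mTert and 0 of 964093 in p21Het, and 0 of 469564 in p21mTertCD. Outside the members, Tert was not confined to p21mTert. In the cDC1 gate it stood at 0 to 2.91 CPM in p21mTert and 0 to 0.869 CPM in the other libraries. In the cDC2 gate these ranges were 0 to 4.58 and 0 to 4.50 CPM, and over all passing barcodes 2.00 to 3.28 and 0.544 to 2.59 CPM.

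UMIs were summed over the members of each library and fitted with edgeR in the 7 libraries with at least 10 members (p21Het_2 and 3, p21mTert_1, 3 and 4, and both of p21mTertCD). Of 3360 genes fitted, 0 (0.0%) passed an adjusted p of 0.05 in each of the 3 comparisons. Unadjusted p was under 0.05 for 187 genes in p21mTert against p21Het, 139 against p21mTertCD and 107 in p21mTertCD against p21Het. DESeq2 called 3, 1 and 0 genes. Without p21Het_3, the p21Het group of the fit was p21Het_2 alone, the library with the cell rich in surfactant UMIs. The log2 fold change of Sftpc, a gene of alveolar type 2 cells, was then -4.20 for p21mTert and -4.28 for p21mTertCD over p21Het. On simulated counts of 3364 genes, the same edgeR fit recovered 72%, 73% and 65.5% of 200 genes changed 4-fold in the 3 comparisons, and 6 of 150, 6 of 152 and 15 of 146 calls were false. The 200 genes were changed at once, which makes the adjusted p easier to pass. These shares therefore do not give the recovery when few genes change, which was not tested. No gene named in the next paragraphs is a call of the edgeR fit unless that is stated.

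By smallest p, Gm42031, a long noncoding RNA gene at chr8:85125872-85132289 (minus strand), led both p21mTert comparisons. In gated cells it stood at 343, 225, 110, 162 and 134 CPM in p21mTert, and at 9.51 to 29.8 CPM in the other 6 libraries, with no overlap. Its log2 fold change was 3.22 over p21Het (SE 0.53, edgeR adjusted p = 0.291) and 4.11 over p21mTertCD (SE 0.65, adjusted p = 0.196). With all 10 replicated libraries in the fit, which admits libraries with 6 members, it passed in both (edgeR adjusted p = 0.0158 and 0.0412), and DESeq2 called it as well. The same fit in the other gated dendritic cells called 1 of 9429 genes (0.0106%) in each p21mTert comparison, Gm47283 over p21Het and Ly6a against p21mTertCD, and Gm42031 had adjusted p = 0.108 and 0.0970 by edgeR there. In those gates, p21mTert libraries stood at 67.2 to 148 CPM in the cDC1 gate and 41.8 to 87.0 CPM in the cDC2 gate, against 4.35 to 19.8 and 4.67 to 16.4 CPM elsewhere. Over all passing barcodes Gm42031 stood at 33.8 to 83.5 CPM in p21mTert against 3.69 to 11.9 CPM elsewhere, with no overlap, and in alveolar type 2 cells the ranges overlapped, at 7.44 to 21 against 1.19 to 19.3 CPM. The interaction of genotype with population for Gm42031 was 0.64 (SE 0.54, edgeR adjusted p = 0.975).

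Other genes led the lists without passing in edgeR. For p21mTert over p21Het, DESeq2 called Cxcl9 (adjusted p = 0.00115) and Samsn1 (adjusted p = 0.0245). The genes with positive values were Cxcl9, an interferon-induced chemokine (log2 fold change 6.03, SE 1.13, edgeR adjusted p = 0.332), and Mndal, an interferon-inducible gene (2.24, SE 0.55, adjusted p = 0.488). Cxcl9 rested on few UMIs and uneven libraries: 131, 0, 349, 67.5 and 19.2 CPM in p21mTert against 0, 3.59 and 0 CPM in p21Het. Those with negative values were Samsn1 (-1.21, SE 0.23, edgeR adjusted p = 0.332), Msi2, an RNA-binding protein gene (-1.88, SE 0.41, adjusted p = 0.488), and Hba-a2, a haemoglobin gene of red blood cells (-3.01, SE 0.67, adjusted p = 0.488). Samsn1 stood at 497, 502, 663, 486 and 1341 CPM in p21mTert and at 722, 1127 and 1356 CPM in p21Het, so that p21mTert_5, which was outside the fit, overlapped. In Fscn1-positive cells alone the Samsn1 difference was -0.40 (edgeR adjusted p = 0.9996). That fit also took in p21mTert_5, so the change of cells and the change of libraries cannot be told apart. Hba-a2 was at 0 to 34.9 CPM in p21mTert and 106 to 278 CPM in p21Het members, and 77 of 146 members held at least 5 haemoglobin UMIs. Of 6 interferon-stimulated genes fitted, 4 had an unadjusted p under 0.05 in the higher direction and 0 were called, and of 7 cDC1 genes 4 and 0, beside 89 higher and 0 called of all 3360 genes. The Fscn1-negative, Ccr7-low cells were 13 of 36 fitted p21mTert and 4 of 53 fitted p21Het members, with 0 of 36 in p21Het_2, and cDC1 genes had a median log2 ratio of -2.44 in Fscn1-positive over Fscn1-negative members. The part of this mix in the cDC1 values was not tested.

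Against p21mTertCD, Ccl17 and the interleukin 4 receptor gene Il4ra were among the 3 genes of smallest p with negative values. Ccl17 had a log2 fold change of -1.24 (SE 0.27, edgeR adjusted p = 0.654), with 4733 and 7604 CPM in p21mTertCD and 450 to 8313 CPM in p21mTert, where p21mTert_2 was the highest library of all. Il4ra had -1.68 (SE 0.36, edgeR adjusted p = 0.654), at 119 and 85.0 CPM against 29.9 to 67.1 CPM, with no overlap. Positive values were those of Stmn1, a microtubule regulator of dividing cells (2.40, SE 0.52, edgeR adjusted p = 0.654), and Gfra2, a co-receptor for neurturin (2.58, SE 0.63, adjusted p = 0.880). Between p21mTertCD and p21Het, the genes with the smallest p included the interferon-inducible Ifi47, with a positive log2 fold change (4.57, SE 1.20). Those with negative values were Ifitm1 (-3.98, SE 0.91), Pfkfb3, a regulator of glycolysis (-1.54, SE 0.36), and the haemoglobin gene Hbb-bt (-3.15, SE 0.76), all with an edgeR adjusted p of 0.997.

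The test of whether a genotype difference in the members differed from that in the other dendritic cells called 1 of 8367 genes (0.012%), Ccl5, for p21mTert against p21Het, and 0 in the other comparisons. With each p21mTert library of the fit left out in turn, 0 to 6 genes passed for p21mTert against p21Het. Leaving out p21Het_2 or p21Het_3 leaves p21Het with a single library, so no count is given there. For Ccl5 the interaction was -4.41 on the log2 scale (SE 0.60, edgeR adjusted p = 0.0186). Over all members, Ccl5 stood at 2167, 1570 and 7027 CPM in p21Het, at 208, 39.6, 404, 1953 and 354 CPM in p21mTert, at 1931 and 1700 CPM in p21mTertCD and at 9951 CPM in WT_1. Of the p21mTert libraries, 4 lay below every other library, and p21mTert_4 lay among them. Within the members the log2 fold change of Ccl5 was -2.37 (SE 0.75, edgeR adjusted p = 0.613), and in the other dendritic cells it was 2.21 (SE 0.63, adjusted p = 0.842). The other dendritic cells held little Ccl5, 1.55 to 128 CPM by gate and library. Over all passing barcodes the direction was opposite to that in the members. There Ccl5 stood at 1076 to 1704 CPM in p21mTert and at 718, 568 and 870 CPM in p21Het. It was at 3169 and 2232 CPM in p21mTertCD and 1180 CPM in WT_1.

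The Ccl5 result rested on few cells. Of the 41 members with at least 10 Ccl5 UMIs, 40 had Fscn1. They were 20 of 59 members in p21Het, 9 of 50 in p21mTert and 9 of 30 in p21mTertCD, pooled over libraries. By library they were 27.8% to 66.7% of members in p21Het, 0% to 33.3% in p21mTert and 25% to 33.3% in p21mTertCD, so the groups overlapped. Several lay near the rule's minimum of 5 H2-Ab1 UMIs, where the median member had 99. In p21Het_3, cells with 1013, 487 and 306 Ccl5 UMIs had 5, 5 and 8 of H2-Ab1, but that with 143 had 182. The cell with 380 in p21Het_2 had 7, and that with 281 in p21mTert_4 had 5. H2-Ab1 alone excluded 26 cells of p21Het_2, 6 of p21Het_3 and 1 to 8 per p21mTert library. The effect on Ccl5 was not tested. With each library's highest cell left out, an alternative added after the data were seen, Ccl5 was 910 to 3957 CPM in p21Het, 7.70 to 770 CPM in p21mTert and 1140 to 1355 CPM in p21mTertCD. In Fscn1-positive cells alone it was 1839 to 13483 CPM in p21Het and 0 to 4856 CPM in p21mTert, where p21mTert_4 overlapped p21Het. The call was lost when Scrublet-marked cells were left out (-2.20, edgeR adjusted p = 1.0), without p21mTert_3 (-4.51, adjusted p = 0.142) and with all 10 libraries (-4.12, adjusted p = 0.611). Marked cells were 22 of the 53 members in p21Het_2 and p21Het_3, the p21Het libraries of the fit. They included all 6 members of p21Het_3 with at least 10 Ccl5 UMIs, and no unmarked member there had more than 3. Leaving marked cells out therefore took away nearly all Ccl5 of p21Het_3.

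**Figure D5:**
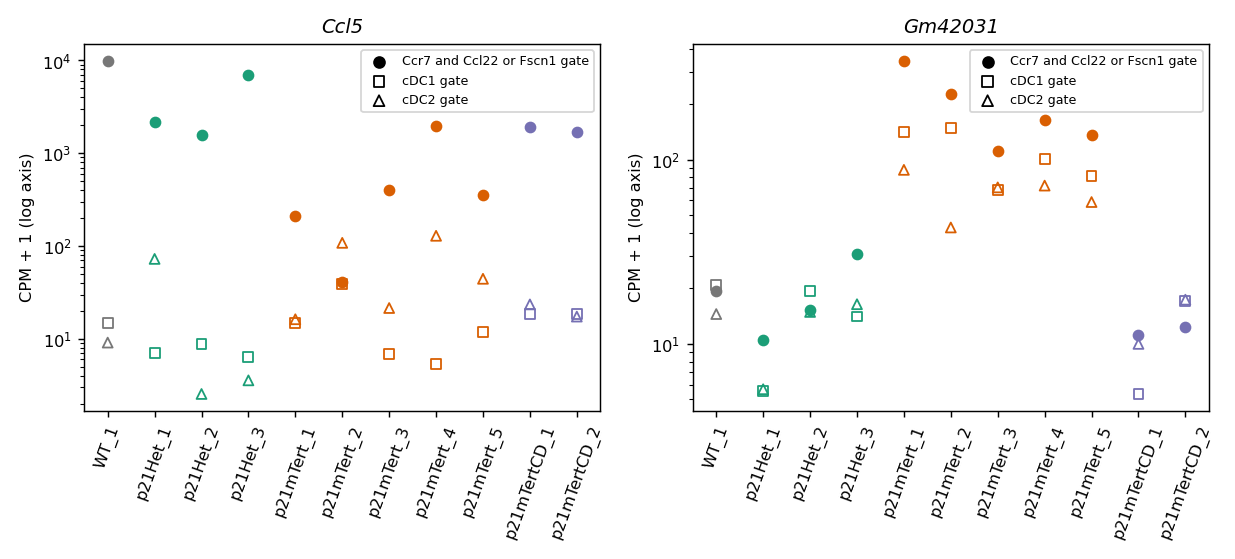
Levels of Ccl5 (left) and Gm42031 (right), as CPM + 1 on log axes, in the members (filled circles), cDC1-gated (squares) and cDC2-gated (triangles) cells of each library, coloured by genotype. Gm42031 is higher in all 5 p21mTert libraries in each gate, whereas Ccl5 is lower in 4 of 5 p21mTert libraries in the members.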

How the data were processed

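Single-cell 3′ libraries of whole mouse lung were analysed from the deposited raw UMI counts per gene and barcode, 31053 genes in 11 libraries. Per the submitters' processing notes, reads were processed with Cell Ranger on mm10. The version in the design text differs from that in the file headers and none is stated here. The lowest barcode of each deposited count matrix had 500 or 501 UMIs, and the limits that the labels' protocols give (1000 to 30000 UMIs, at most 14% mitochondrial) were applied here.

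The cell gate, the gene lists, the compared groups and the rule for named genes were chosen with earlier results of these data known. cDC1-gated cells had 2 or more UMIs of Xcr1 and Clec9a, cDC2-gated cells 2 or more of Cd209a, and both at least 5 of H2-Ab1 and none of Cd3e and Cd79a. Members were left out of both gates, and cDC1-gated cells were left out of the cDC2 gate. Alveolar type 2 cells had 50 or more Sftpc UMIs and no Ptprc. Doublets were scored with Scrublet in scanpy 1.11.5 and kept. Levels are UMIs per 1000000 UMIs (CPM) pooled over cells, and ratios use a pseudocount of 1 CPM. In the lists, 4 genes were not among the file's symbols.

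The replicate is the library. Shares were tested with 2-sided exact permutation tests, adjusted by Benjamini-Hochberg over 6 tests. Gene tests were quasi-likelihood tests of edgeR 4.0.16 (R 4.3.3), with TMM scaling and the filterByExpr filter, on UMIs summed over the gated cells of libraries with at least 10 of them. The interaction test added the library as a block. DESeq2 1.42.0 was an alternative. The edgeR fit was tested on simulated data. WT has 1 library and entered no test. Intervals are exact (Clopper-Pearson) and, like the floors of 3 counts, cover counting error only.

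Named genes are the gate genes, Cdkn1a and Tert, list members with 20 or more UMIs, and the 25 genes of most extreme ratio in each direction with 100 CPM and the same direction in every library. In each genotype comparison they are up to 10 called genes in each direction or, with none called, up to 3 by smallest p. Tcf7, Spib, Cst3, Aire, and Il12a and Il10, at 0 UMIs, were named after their values were seen. A few items are not reported here. Gene positions are from GENCODE M21 (GRCm38). Alternatives covered the gate, doublets, depth, deposit, normalization, filter, test, denominators and each library. Other tools were Python 3.11.15, numpy 2.4.6, pandas 2.3.3, scipy 1.17.1, anndata 0.12.19 and matplotlib 3.10.9.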

Additional observations from a re-analysis of the deposited data

Results flagged for a closer look

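Of 16 values examined for a sample far from the rest of its group, 2 stood out among the 5 p21mTert libraries, where chance alone gives about 1 in 20. Ccl5 stood at 1953 CPM in the gated cells of p21mTert_4, against 39.6 to 404 CPM in the other 4. Of its 434 Ccl5 UMIs there, 281 were in 1 cell, and the library stood at 770 CPM without that cell. Samsn1 stood at 1341 CPM in the gated cells of p21mTert_5, against 486 to 663 CPM in the other 4. That library had 6 gated cells, 5 of them with Fscn1.

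The genotype difference of Ccl5 between p21mTert and p21Het differed between the members and other dendritic cells, by -4.41 on the log2 scale (edgeR adjusted p = 0.0186). Under 11 alternatives the value lay between -5.93 and -2.20. Some of them leave p21Het or p21mTertCD with a single library, so no count of those that passed is given.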

How the results depend on the processing

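The differences of p21mTert from p21Het and from p21mTertCD in the share of passing barcodes stayed negative under each alternative run. The first, -0.108 points, was -0.0356 without Scrublet-marked cells and -0.2023 in the later deposit alone. With each library left out in turn they ranged from -0.1945 to -0.0316 and from -0.1129 to -0.0528 percentage points. Without p21Het_1 the first was -0.1945 (exact permutation p = 0.0476). With cells thinned to 2000 UMIs the second was -0.0603 points (exact permutation p = 0.0476). p21mTertCD minus p21Het ranged from -0.1117 to 0.0512 with libraries left out, and was 0.0645 without Scrublet-marked cells and 0.0628 on the logit scale. As shares of gated dendritic cells, p21mTert minus p21Het ranged from -4.1099 to 0.5469 and was 0.4071 without marked cells. p21mTert minus p21mTertCD ranged from -5.8656 to 0.9272. p21mTertCD minus p21Het ranged from -2.5604 to 4.2323, and was -0.6507 thinned and -1.6407 in the later deposit alone. The causes were not tested.

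Called genes within the members, in the order p21mTert against p21Het, p21mTert against p21mTertCD and p21mTertCD against p21Het, numbered 89, 37 and 47 with no filter on low counts, where more genes of few UMIs are tested, and 3, 1 and 0 with DESeq2. They numbered 1, 1 and 0 with all 10 libraries, and 2 (Mndal and Cxcl2), 0 and 0 in the later deposit alone. With p21mTert_1 left out they numbered 2, 0 and 0, and with p21mTert_3 or p21mTert_4 left out 0, 0 and 0. For genes called within the members, no count is given with a p21Het or p21mTertCD library left out. A single library then remains in that group. Interaction calls were 68, 29 and 20 with no filter, and 0 for p21mTert against p21Het without marked cells and with all 10 libraries. Their highest counts with any library left out came from fits with a single p21Het or p21mTertCD library, so those are not read as calls. With p21mTert libraries alone left out in turn, interaction calls ranged from 0 to 6, 0 to 4 and 0 to 1. They ranged from 0 to 53, 0 to 17 and 0 to 26 with libraries left out.

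Among the list counts, leaving out Scrublet-marked cells moved uptake genes from 6 lower and 0 higher to 5 and 1 of 14, chemokines and cytokines from 6 to 5 of 14 higher, interferon-stimulated genes from 5 to 6 of 12 higher, neutrophil markers from 0 to 3 of 3 at least 2-fold lower, epithelial markers from 1 to 0 of 4 higher, and stress genes from 2 to 4 of 12 lower.

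The main fits did not pair libraries by number. Same-numbered libraries correlated at -0.07, -0.23 and -0.24 in their deviations from group means. In a group of 2 libraries these deviations mirror each other, so the values cannot tell whether libraries were paired. By the labels, p21mTert_1 and p21mTertCD_1 share a number but differ in deposit and age (20 and 18 months). With the replicate block, 1 gene was called for p21mTert against p21Het (Ccl5, edgeR adjusted p = 0.0474) and 0 in the others. The block used up most of the freedom of the 7 libraries to estimate spread. The share differences in the block were -0.1011, -0.0948 and -0.0150 points of passing barcodes and -0.6147, -2.5016 and 1.1323 points of dendritic cells.

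The depth limits are the 6 to 36 gated cells per library and, for single cells, the median of 16710 UMIs. Tert, with 8 UMIs in the members, was fitted within the members only with no filter on low counts, and it was not called there. p21mTertCD has 2 libraries.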
